A study of Mus musculus with 8 samples.

Results

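The genes described here set or read out the direction in which the hair bundle points on a vestibular hair cell. They are 7 genes chosen by name: the transcription factor gene Emx2, the kinase gene Stk32a, the scaffold genes Gpsm2 and Insc, and the G protein genes Gnai1, Gnai2 and Gnai3. All 7 are protein coding. All were found among the 48823 genes of the count files, and all 7 passed the filter on low counts that left 16990 genes for testing. Their levels come from RNA sequencing of mouse utricles, the inner ear organs that sense linear acceleration and gravity, at stage E15.5. Rest(+/deltaExon4) embryos, in which 1 allele of Rest lacks exon 4, gave 4 libraries, and wild-type embryos gave the other 4. The titles call the mutant libraries KO, while their genotype label is that of heterozygotes. The strain label is C57BL/6 for all libraries except wild-type replicate 4, whose strain and age labels (E15.6) each differ by 1 digit. Each library pooled RNA from 7 to 9 mice, so a value is an average over animals and over every cell type of the dissected utricle. Nothing says that the pools came from separate litters, so p-values measure only the spread between these pools.

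Hair cells of the utricle point in opposite directions on either side of a line of polarity reversal. Emx2 is made on one side of that line and turns bundles round, while Stk32a is made on the other side. Gnai1, Gnai2 and Gnai3 encode inhibitory G protein alpha subunits. Gpsm2 binds these subunits in their GDP-bound form, and Insc links Gpsm2 to partition-defective polarity proteins. The Gpsm2 and Gnai proteins mark the bare zone beside the bundle and are also found at the tips of the tallest stereocilia. REST is a repressor of neuronal genes, and the comparison of the genotypes asks what the loss of its alternative exon 4 does to expression in the utricle.

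Rest was at 125 to 132 CPM in the mutant libraries and at 106 to 122 CPM in the wild-type libraries, where CPM is the count scaled to library size with TMM factors (trimmed mean of M values). Every mutant library was above every wild-type library for Rest, but its log2 change of 0.12 ± 0.07 (SE) did not pass (edgeR quasi-likelihood test, Benjamini-Hochberg adjusted p = 0.456). A count per gene does not show which exons were used. The mutant libraries held 22.4 to 24.6 M gene read pairs and the wild-type ones 20.4 to 23.8 M. The share of pairs falling outside genes was 11.9% to 18.3% for mutants and 18.4% to 22.2% for wild type, without overlap between the genotypes. The part of that difference in the members' values was not tested. Markers of hair cells, supporting cells, ganglion neurons, Schwann cells, periotic mesenchyme, melanocytes, roof and dark cells, endothelium, macrophages and red blood cells were present, led by Myo6, Sox9, Nefm, Erbb3, Otor, Mitf, Oc90, Pecam1, Csf1r and Hbb-bs as the most abundant gene of each list in that order, and no listed marker stayed under 0.5 CPM in every library.

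None of the 7 orientation genes passed the threshold of 0.05 for the adjusted p, whereas 198 of all 16990 genes did, a share of 1.17% (0.147% higher and 1.02% lower in mutants). With an unadjusted p under 0.05 there was 1 member, Stk32a, against 13.4% of all genes tested. The genotypes did not overlap for 1 member, Gnai2, which was higher in mutants, against 7.88% of all genes (2.98% higher and 4.89% lower). The log2 change was positive for 4 members and negative for 3, with a median of 0.12 against 0.00 (-0.0027) over all genes tested. In such bulk tissue, fewer cells of a type and less RNA per cell cannot be told apart. The 12 hair cell markers summed to 661 to 807 CPM in mutant libraries and 772 to 887 CPM in wild-type libraries, overlapping between genotypes. The 8 ganglion neuron markers summed to 356 to 420.3 CPM in mutant libraries and 546 to 755 CPM in wild-type libraries, without overlap. Past the threshold on these lists were Otof among the hair cell markers and Nefl and Nefm among the neuronal ones, all lower in mutants. The other 11 hair cell markers did not pass. On the log2 scale they changed by 0.65 for Atoh1, 0.63 for Pvalb, 0.01 for Lhx3, -0.07 for Pou4f3 and -0.13 for Myo6. The rest were at -0.16 for Espn, -0.32 for Cdh23, -0.40 for Myo7a, -0.42 for Gfi1, -0.47 for Pcp4 and -1.59 for Ocm. Of these 11, Pvalb was higher and Ocm lower in mutants without overlap. With Otof, 3 of the 12 hair cell markers did not overlap, against 7.88% of all genes. An unadjusted edgeR p under 0.05 was found for 6 of the 12, against 13.4% of all genes. Nefl and Nefm carried most of the gap in the neuronal sum, with means of 72.4 and 100.4 CPM in mutants, against 134 and 254 CPM in wild type. The other 6 neuronal markers did not pass and overlapped between genotypes. Their log2 changes were 0.01 for Isl1, 0.03 for Pou4f1, 0.27 for Neurod1, 0.27 for Ntrk2, -0.64 for Tubb3 and -1.68 for Prph. The part of these cell types in the members' values was not tested.

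**Figure D1:**
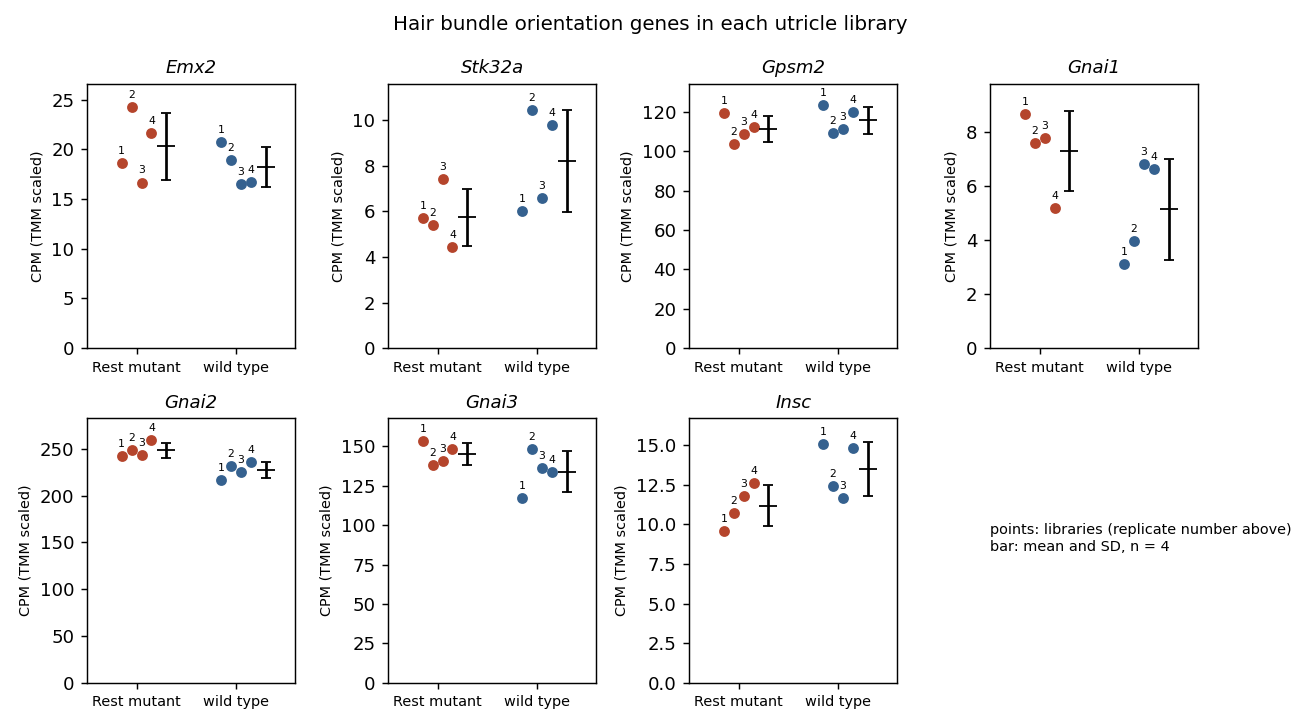
Level of each orientation gene in CPM (vertical axis from 0) in the 4 Rest mutant and 4 wild-type libraries; points are libraries with their replicate number, and the bar is the mean with its SD. The genotypes overlap in 6 of the 7 panels, and for Gnai2 every mutant library lies above every wild-type library.

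Emx2 (ENSMUSG00000043969, chromosome 19, 59458372 to 59465357, GRCm38) gave 18.6, 24.2, 16.7 and 21.7 CPM in mutant replicates 1 to 4, against 20.7, 18.9, 16.5 and 16.7 CPM in wild-type replicates 1 to 4. The 2 highest libraries were mutant and the lowest was wild type, but the genotypes overlapped over most of their range. The log2 change was 0.16 ± 0.14 (SE, 95% interval -0.14 to 0.46), with an adjusted p of 0.648 by edgeR's test. The interval corresponds to a level between 0.905 and 1.37 times that of wild type.

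The exons of Emx2 share 264 bases (8.79% of its exon length) with Emx2os, a noncoding gene on the opposite strand. The libraries do not keep strand, so read pairs that fall on both genes were counted for neither. Summed over both strands, the counts assigned by strand exceeded the Emx2 counts used here by 0.733% to 2.94%. This excess can hold pairs from either gene. Emx2os itself was at 8.92, 8.84, 10.02 and 8.35 CPM in mutant libraries and at 10.7, 9.88, 12.3 and 11.9 CPM in wild-type libraries. The highest mutant library exceeded the lowest wild-type library, and the log2 change of -0.31 ± 0.13 (SE) did not pass (edgeR adjusted p = 0.328). The difference between the changes of Emx2 and Emx2os was not tested.

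Stk32a (ENSMUSG00000039954, chromosome 18, 43207583 to 43318682) was the gene with the fewest reads per kilobase among the members. It gave 5.70, 5.40, 7.43 and 4.42 CPM in mutant libraries and 6.00, 10.4, 6.59 and 9.80 CPM in wild-type libraries. Wild-type replicates 2 and 4 were above all mutant libraries, while wild-type replicates 1 and 3 lay within the mutant range. These values rest on 108 to 226 read pairs per library. The mean was 5.74 ± 1.25 CPM in mutants, against 8.21 ± 2.24 CPM in wild type (SD, n = 4 each). The log2 change of -0.51 ± 0.23 (SE) had a 95% interval from -1.01 to -0.01, an unadjusted edgeR p of 0.0449 and an adjusted p of 0.364, so it did not pass the threshold over all genes. Of all genes tested, 87.5% had a smaller absolute log2 change.

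Since Emx2 and Stk32a are made in complementary zones, their levels were compared library by library. Across the 8 libraries Pearson's r of their log2 CPM was -0.61 (exact permutation p = 0.104) and Spearman's rho was -0.60 (exact permutation p = 0.132). No other pair of genes was compared by correlation. After the genotype means were subtracted, r was -0.51 (exact permutation p = 0.196) and rho was -0.57 (exact permutation p = 0.151). Without mutant replicates 2 and 4, the libraries farthest from the median of Emx2, r was -0.28 (exact permutation p = 0.594, 6 libraries) and rho was -0.09 (exact permutation p = 0.919). Removing the extremes of Emx2 also narrows its range. With only mutant replicate 2 left out r was -0.58 (exact permutation p = 0.177), and with only mutant replicate 4 left out it was -0.52 (exact permutation p = 0.197). Within a genotype there were 4 libraries, too few for a separate value.

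**Figure D2:**
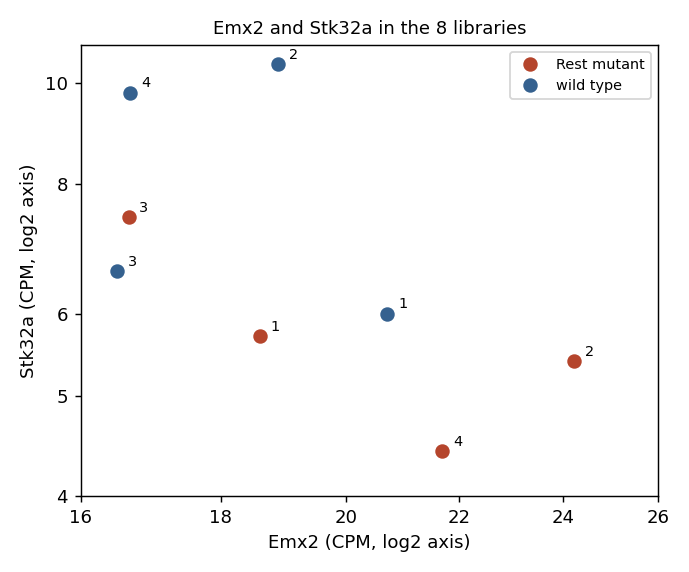
Stk32a against Emx2 in CPM, both on log2 axes, for the 4 Rest mutant and 4 wild-type libraries with their replicate numbers. Mutant replicates 2 and 4 lie farthest to the right, at 24.2 and 21.7 CPM of Emx2, with 5.40 and 4.42 CPM of Stk32a.

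As a ratio per kilobase of exon, Emx2 stood at 6.18 to 13.5 times Stk32a in mutant libraries and at 4.69 to 9.52 times in wild-type libraries. The means were 10.3 ± 3.33 in mutants and 6.52 ± 2.22 in wild type (SD, n = 4 each), and the difference of 3.74 did not pass (exact two-sided permutation p = 0.143). Of the paralogs, Emx1 and Stk32c stayed under 0.5 CPM in every library. Stk32b averaged 5.57 ± 0.610 CPM in mutants, against 6.52 ± 1.69 CPM in wild type (n = 4 each, mean ± SD; edgeR adjusted p = 0.649).

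The 3 Gnai genes encode closely related proteins, so their reads could be confused if the messages shared long stretches. The 1065 coding bases of Gnai1 (chromosome 5) were 78.5% identical to the 1068 of Gnai2 (chromosome 9) and 78.2% identical to the 1065 of Gnai3 (chromosome 3), and Gnai2 and Gnai3 were 73.8% identical. The longest identical coding stretch was 32 bases for Gnai1 and Gnai2, 22 for Gnai2 and Gnai3 and 21 for Gnai1 and Gnai3. Each is shorter than the reads, at 126 bases. Only coding bases were compared, and how many reads matched more than 1 of these genes was not tested.

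Gnai2 (ENSMUSG00000032562, chromosome 9, 107614125 to 107635367) was the most abundant member. It gave 242, 248, 243 and 259 CPM in mutant libraries and 216, 231, 225 and 236 CPM in wild-type libraries. Every mutant library was above every wild-type library. With scaling by library size alone the genotypes overlapped. The means were 248 ± 7.94 CPM in mutants, against 227 ± 8.42 CPM in wild type (SD, n = 4 each), and the log2 change of 0.13 ± 0.06 (SE, 95% interval -0.01 to 0.27) did not pass (edgeR adjusted p = 0.417).

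Gnai3 (ENSMUSG00000000001, chromosome 3, 108107280 to 108146146) gave 153, 138, 141 and 148 CPM in mutant libraries and 117, 148, 136 and 134 CPM in wild-type libraries. Wild-type replicate 1 was lowest, and the other 3 wild-type libraries reached into or close to the mutant range. Its log2 change was 0.12 ± 0.08 (SE, 95% interval -0.06 to 0.30), with an edgeR adjusted p of 0.565.

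Gnai1 (ENSMUSG00000057614, chromosome 5, 18265135 to 18360355) was far less abundant and varied more between libraries. It gave 8.66, 7.60, 7.77 and 5.2 CPM in mutant libraries and 3.10, 3.97, 6.83 and 6.64 CPM in wild-type libraries, from 73 to 202 read pairs. Mutant replicates 1 to 3 were above all wild-type libraries and mutant replicate 4 lay within the wild-type range. The log2 change of 0.51 ± 0.27 (SE) had a 95% interval from -0.08 to 1.10 and did not pass (edgeR adjusted p = 0.443). The interval covers levels between 0.943 and 2.14 times that of wild type, so these libraries do not tell an unchanged level from one that is 2.14 times as high.

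Shares within a library do not depend on how libraries are scaled. Per kilobase of exon, Gnai2 made up 58.4% ± 1.49 of the summed Gnai1, Gnai2 and Gnai3 level in mutant libraries and 58.5% ± 1.81 in wild-type libraries (SD, n = 4 each). Gnai3 made up 39.5% ± 1.28 in mutant and 39.9% ± 1.76 in wild-type libraries. Gnai1 accounted for the small remainder, at 2.43%, 2.20%, 2.25% and 1.43% in mutant libraries and 1.05%, 1.17%, 2.11% and 2.01% in wild-type libraries. The exact two-sided permutation p was 0.886 for Gnai2, 0.771 for Gnai3 and 0.171 for Gnai1 (3 shares that sum to a fixed total and are therefore not independent), where 4 libraries against 4 cannot give less than 0.0286.

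**Figure D3:**
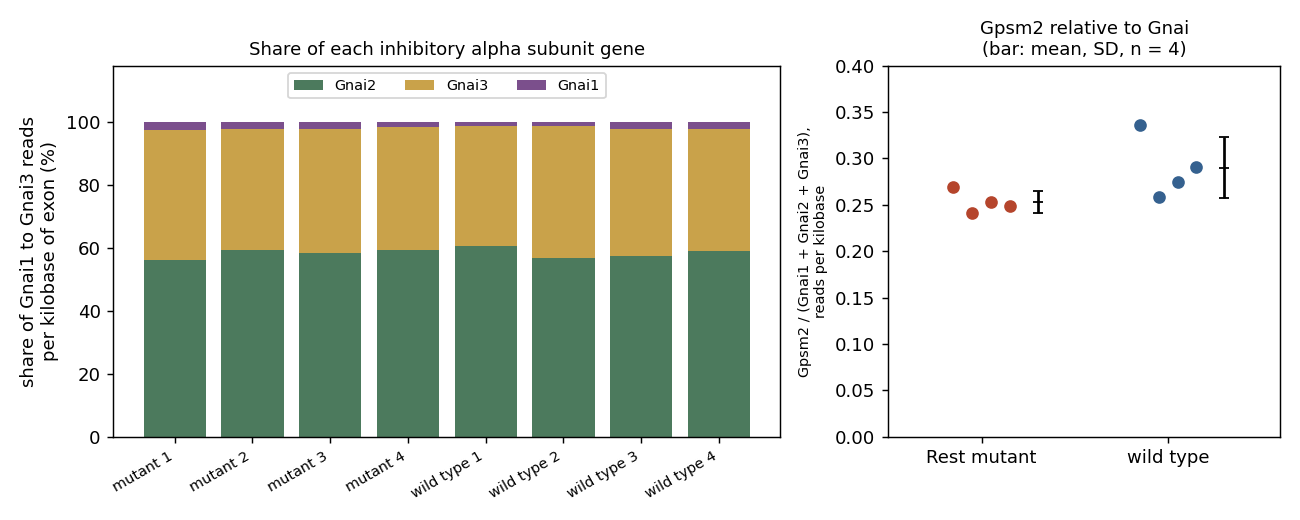
Left, share of Gnai2, Gnai3 and Gnai1 in their summed reads per kilobase of exon (%), stacked for each Rest mutant and wild-type library. Right, Gpsm2 divided by the summed Gnai level in each library with the mean and SD; mutant libraries lie between 0.241 and 0.269 and wild-type libraries between 0.259 and 0.336.

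REST is known to bind a long motif called RE1, whose left and right parts can be written TTCAGCACC and GGACAG. The 250 bases upstream of the RefSeq start (GRCm38.p6) were searched on both strands for Emx2, Gpsm2, Gnai1, Gnai3 and Insc, the 5 members matched. The left part was in none of the 5, and in 0.348% of 27025 mouse genes (0.301% of their 32851 promoters). The right part was in 2 of the 5, and in 21.0% of all genes (18.7% of all promoters), a background that these short letters reach often. The windows that hold it are printed 5′ to 3′ along the gene with the match in capitals, since REST is the gene altered here. The match starts 105 bases before the start of Gnai3, and 129 bases before the start of Gnai1 in the reverse orientation.
Gnai3 (chr3:108146153-108146402, minus strand): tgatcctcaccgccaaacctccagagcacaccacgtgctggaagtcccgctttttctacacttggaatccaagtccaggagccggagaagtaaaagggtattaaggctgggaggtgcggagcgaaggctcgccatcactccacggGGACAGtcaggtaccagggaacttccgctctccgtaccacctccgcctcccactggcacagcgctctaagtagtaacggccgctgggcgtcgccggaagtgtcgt
Gnai1 (chr5:18360414-18360663, minus strand): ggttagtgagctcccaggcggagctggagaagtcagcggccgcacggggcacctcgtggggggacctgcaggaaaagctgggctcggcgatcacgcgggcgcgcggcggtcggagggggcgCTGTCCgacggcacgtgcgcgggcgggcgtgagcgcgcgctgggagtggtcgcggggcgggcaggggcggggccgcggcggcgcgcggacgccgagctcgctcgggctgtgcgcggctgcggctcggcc
A match of these letters is a description of the window and does not show binding.

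Gpsm2 (ENSMUSG00000027883, chromosome 3, 108678638 to 108722309) had the narrowest interval of the members after Gnai2. It gave 119.8, 104, 109 and 112 CPM in mutant libraries and 124, 109, 111 and 119.97 CPM in wild-type libraries, so the genotypes overlapped almost completely. The log2 change was -0.06 ± 0.07 (SE, 95% interval -0.22 to 0.10, edgeR adjusted p = 0.761), which corresponds to a level between 0.859 and 1.07 times that of wild type. A 203-base end of its exons (5.19%) is shared with Clcc1 on the opposite strand. Summed over both strands, the counts assigned by strand exceeded the Gpsm2 counts used here by 8.12% to 9.99%. This excess can hold pairs from either gene. Clcc1 was at 54.4 to 66.6 CPM in mutant libraries and 55.3 to 57.4 CPM in wild-type libraries (edgeR adjusted p = 0.722).

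Relative to its binding partners, Gpsm2 stood at 0.253 ± 0.012 of the summed Gnai level per kilobase in mutant libraries and at 0.290 ± 0.0332 in wild-type libraries (SD, n = 4 each). The libraries gave 0.269, 0.241, 0.254 and 0.249 in mutants and 0.336, 0.259, 0.275 and 0.291 in wild type. Wild-type replicate 1 was the highest, and wild-type replicate 2 lay within the mutant range. The difference of -0.037 was not past the threshold (exact two-sided permutation p = 0.0571). Without wild-type replicate 1 it was -0.022 (exact permutation p = 0.114), and the smallest p that 4 libraries against 3 can give is 0.0571.

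Insc (ENSMUSG00000048782, chromosome 7, 114743694 to 114850383) gave 9.60, 10.7, 11.8 and 12.6 CPM in mutant libraries and 15.1, 12.4, 11.7 and 14.8 CPM in wild-type libraries. Wild-type replicates 1 and 4 were above every mutant library, and the other 2 lay within the mutant range. The means were 11.2 ± 1.31 CPM in mutants, against 13.5 ± 1.68 CPM in wild type (SD, n = 4 each), with a log2 change of -0.27 ± 0.14 (SE, 95% interval -0.57 to 0.03) that did not pass (edgeR adjusted p = 0.419).

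**Figure D4:**
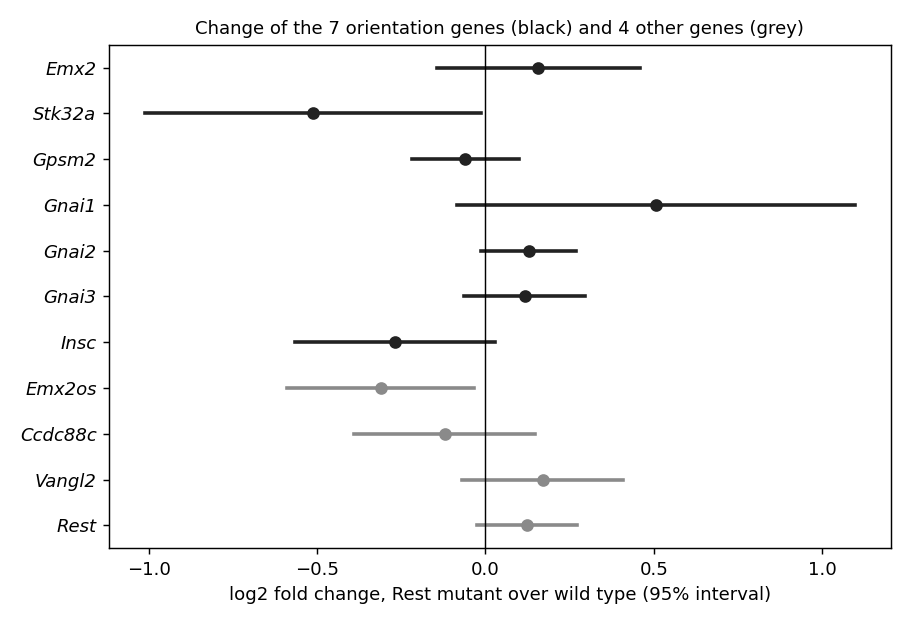
Log2 fold change of Rest mutant over wild type (horizontal axis) with its 95% interval from edgeR, for the 7 orientation genes in black and for Emx2os, Ccdc88c, Vangl2 and Rest in grey. The narrowest intervals of the 7 belong to Gnai2 and Gpsm2 and the widest to Gnai1, from -0.08 to 1.10; the interval of Stk32a ends at -0.01, and no adjusted p passed the threshold.

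Per unit of gene length the members kept a fixed order over most libraries. In TPM, computed here from reads per kilobase of exon and scaled to a common total in each library, Gnai2 averaged 211 over the 8 libraries, Gnai3 144, Gpsm2 97.9, Emx2 21.5, Insc 11.2, Gnai1 6.67 and Stk32a 2.84. From Gnai2 down to Insc the ranges of neighbours did not overlap, and each neighbouring pair kept its order in 8 of 8 libraries. The ranges of Insc (8.65 to 13.8 TPM) and Gnai1 (3.37 to 9.26 TPM) overlapped, with Insc higher in 7 of 8 libraries. Gnai1 and Stk32a (1.77 to 4.27 TPM) overlapped in range as well, with Gnai1 higher in 8 of 8 libraries. Among all genes tested, the mean level of Gnai2 was above 94.8% of genes, that of Emx2 above 63.3% and that of Stk32a above 22.3%.

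The genes around this pathway were counted in the same way. Of 87 genes on 7 lists, 81 were tested, and none passed the threshold. Of the 81, 11 had an unadjusted p under 0.05, which is 13.6% against 13.4% of all genes. Of 21 partners and regulators of Gpsm2 and Gnai, none passed (median log2 change -0.06). Ccdc88c, which encodes the G protein regulator Daple, averaged 29.7 ± 3.74 CPM in mutants, against 32.3 ± 4.15 CPM in wild type (n = 4 each, mean ± SD; edgeR adjusted p = 0.700). Numa1, whose protein binds Gpsm2 at the spindle, averaged 77.9 ± 6.41 CPM in mutants, against 78.2 ± 4.34 CPM in wild type, and Rgs12, a gene of G protein inactivation, averaged 53.7 ± 1.48 CPM in mutants, against 55.2 ± 3.89 CPM in wild type.

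Core planar cell polarity genes, which align neighbouring cells, had none of 19 past the threshold (median log2 change 0.04). An unadjusted p under 0.05 was found for 2 of the 19, against 13.4% of all genes. These were Celsr3 (log2 change -1.14 ± 0.37, SE, edgeR adjusted p = 0.230) and Dvl2 (0.57 ± 0.23, SE, edgeR adjusted p = 0.329). The genotypes did not overlap for 1 of the 19, Ptk7, higher in mutants (0.34 ± 0.17, SE, edgeR adjusted p = 0.411), against 7.88% of all genes. Vangl2 averaged 37.4 ± 3.03 CPM in mutants, against 33.2 ± 4.26 CPM in wild type (n = 4 each, mean ± SD; log2 change 0.17 ± 0.11, SE, edgeR adjusted p = 0.529). The most highly expressed genes of this list were Dvl3, at 139 ± 12.3 CPM in mutants, against 139 ± 6.61 CPM in wild type, and Wnt5a, at 116 ± 26.1 CPM in mutants, against 107 ± 8.17 CPM in wild type. Of the genes for Rac, Cdc42, Pak kinases, kinesin-2 and ciliary proteins that position the kinocilium, none of 13 passed (median log2 change -0.04). An unadjusted p under 0.05 was found for 5 of the 13, against 13.4% of all genes. The genotypes did not overlap for 2 of the 13, both lower in mutants, against 7.88% of all genes (4.89% lower). Bbs4, a gene of the ciliary BBSome, averaged 66.0 ± 4.30 CPM in mutants, against 77.8 ± 3.17 CPM in wild type, without overlap (n = 4 each, mean ± SD; log2 change -0.24 ± 0.07, SE, edgeR adjusted p = 0.187). Ift88, a gene of intraflagellar transport, averaged 40.6 ± 5.48 CPM in mutants, against 49.5 ± 0.901 CPM in wild type, also without overlap (edgeR adjusted p = 0.252). Kifap3, the kinesin-2 adaptor gene, had a log2 change of -0.24 ± 0.09 (SE, edgeR adjusted p = 0.282). The GTPase gene Rac1 averaged 29.4 ± 14.9 CPM in mutants, against 13.5 ± 4.31 CPM in wild type, with overlap (log2 change 1.12 ± 0.39, SE, edgeR adjusted p = 0.262). Cdc42 averaged 863 ± 50.8 CPM in mutants, against 859 ± 39.2 CPM in wild type, and Pak2 averaged 200.1 ± 32.6 CPM in mutants, against 167 ± 10.3 CPM in wild type (edgeR adjusted p = 0.333 for Pak2).

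At the stereocilia tip, Gpsm2 and Gnai join a complex with Myo15a, Whrn and Eps8, and none of these 3 genes passed (median log2 change -0.28). Eps8, which caps actin filaments, averaged 41.3 ± 7.66 CPM in mutants, against 44.5 ± 2.86 CPM in wild type (SD, n = 4 each). Myo15a, the motor that carries the complex to the tip (named Myo15 in GENCODE M21), gave 10.4, 8.94, 5.22 and 6.67 CPM in mutant libraries and 14.2, 9.47, 15.4 and 12.2 CPM in wild-type libraries. Mutant replicate 1 exceeded wild-type replicate 2, and the log2 change of -0.72 ± 0.22 (SE) had an unadjusted edgeR p of 0.00867 but an adjusted p of 0.205.

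None of 11 other alpha subunit genes and none of 13 beta and gamma subunit genes passed either, with median log2 changes of 0.06 and 0.01. Gnaq averaged 417 ± 61.5 CPM in mutants, against 439 ± 34.3 CPM in wild type, and Gna11 averaged 149 ± 34.5 CPM in mutants, against 140.2 ± 3.75 CPM in wild type (SD, n = 4 each). The beta subunit gene Gnb1 was the most highly expressed gene on these lists, at 6289 ± 1048 CPM in mutants, against 5656 ± 301 CPM in wild type (edgeR adjusted p = 0.595). Gng5 averaged 225 ± 14.8 CPM in mutants, against 206 ± 15.1 CPM in wild type.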

How the data were processed

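RNA of dissected utricles was reverse transcribed from an oligo-dT primer, amplified and tagmented, per the labels' protocols. The authors deposited a count of read pairs per gene for each of 8 libraries, made with STAR 2.5.2a on GRCm38.p4 per the submitters' processing notes. The annotation release is not given in the sources used here. The unstranded column was used, since the ratio of the strand columns' totals was 0.996 to 1.00. Lines that name no gene held 25.2% to 33.9% of read pairs and were left out. The authors also deposited normalized counts of 21369 genes in 7 libraries (without wild-type replicate 4), a signal made by dividing counts by a size factor. Multiplied back, 100% of values became whole reads within 0.001 reads. The count test on these libraries and genes was an alternative, and called 20 genes higher and 107 lower.

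Of 48823 identifiers, 48349 were found in GENCODE M21 (GRCm38), which gave symbols, exon lengths and coordinates. Genes were kept by filterByExpr (minimum count 10, minimum total 15) and the genotypes compared with edgeR 4.0.16 in R 4.3.3 (TMM factors, quasi-likelihood test, Benjamini-Hochberg over all 16990 genes, threshold 0.05). The SE is the log2 change divided by the square root of F. The edgeR test was tested on simulated data. Exact permutation tests were two-sided over 70 assignments. Alternatives were DESeq2 1.42.0, other scalings and filters, a replicate block and leaving out each library. The ratios of Emx2 to Stk32a and of Gpsm2 to Gnai, with their alternatives, were added after seeing the files.

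Replicate numbers did not pair the libraries, so the genotypes were compared without a block. No 2 of the 28 pairs of libraries were identical. The members and gene lists were chosen with earlier results of these data known. Named were all members, Rest, genes overlapping a member, from each pathway list the genes past the threshold or else the 2 most highly expressed, Ccdc88c and Vangl2, for each member the 2 protein-coding genes of most similar profile, and any of 10 neighbouring genes past the threshold. From the cell type lists the most abundant gene was named. Emx1, Stk32c, Whrn, Otof and the other hair cell markers, Nefl and the other neuronal markers, Rac1, Kifap3, Ift88, Bbs4, Vav3 and Gstm7 were named outside that rule, after their values were seen. Some items are not reported here.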

Additional observations from a re-analysis of the deposited data

How the results depend on the processing

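None of the 7 orientation genes passed under any of the 16 alternatives run for each (112 values, adjusted p from 0.323 to 0.955), and the direction was kept in 111. The exception was Gpsm2 with libraries scaled to the summed counts of Pou4f3, Gfi1, Lhx3 and Myo6, at a log2 change of 0.0776 ± 0.14 (SE, edgeR adjusted p = 0.814). That scaling moved the median of all genes to 0.13, and relative to it Gpsm2 was at -0.05. With each library left out in turn, the log2 change ranged from 0.07 to 0.24 for Emx2, -0.66 to -0.37 for Stk32a, -0.10 to -0.02 for Gpsm2, 0.33 to 0.68 for Gnai1, 0.11 to 0.15 for Gnai2, 0.07 to 0.18 for Gnai3 and -0.33 to -0.20 for Insc.

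Over all genes, 25 were higher and 173 lower in mutant libraries. DESeq2 called 156 higher and 388 lower, the authors' 7 libraries and genes 107 lower, and leaving out a library 12 to 28 higher and 105 to 140 lower. The replicate block gave 16 higher and 80 lower. Libraries with the same replicate number did not deviate together (r from -0.24 to 0.11, above 0.1 in 1 of 4 pairs), so the numbers do not pair the libraries. The mutant minus wild-type difference in the share of Gnai2 was -0.143 points, and -0.757 to 0.614 points with a library left out. It turned positive without mutant replicate 1 (0.575) and without wild-type replicate 1 (0.614) or 4 (0.048). For Gnai3 it was -0.349 points, and -0.950 to 0.402 with a library left out, positive without mutant replicate 2 (0.055) or wild-type replicate 2 (0.402). For Gnai1 it was 0.314 to 0.707 points with a library left out. The correlation of Emx2 with Stk32a ranged from -0.74 to -0.52 with a library left out and passed without wild-type replicate 2 (r = -0.74, exact permutation p = 0.0373). The ratio differences of Gpsm2 to Gnai and of Emx2 to Stk32a kept their direction under all their alternatives. The cause of these shifts was not tested. Depth limits Gnai1 and Stk32a most, with 73 to 226 read pairs per library.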

Other observations

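The 5 tested genes on either side of each orientation gene on its chromosome were taken as its neighbours. Over all 7 members they held 1 gene past the threshold, against 1.17% of all genes tested. It lay among the neighbours of Emx2. This was Shtn1, which encodes shootin 1, a protein of axon outgrowth (chromosome 19, 58973356 to 59076100). Its mean was 50.7 CPM in mutants, against 90.1 CPM in wild type (n = 4 each), and it fell by 0.83 ± 0.10 on the log2 scale (SE, edgeR adjusted p = 0.00163). The 10 neighbours of Emx2 had a median log2 change of -0.19. Among the 10 neighbours of each of the other 6 members none passed, with medians from -0.22 around Gnai1 to 0.06 around Gnai3. Farther out on chromosome 3, which holds Gnai3 and Gpsm2, genes did pass. The nearest to Gpsm2 were Vav3, 0.618 Mb beyond its end, with a log2 change of 1.24 (edgeR adjusted p = 0.00311), and Gstm7, at -0.747 Mb from its other end, with a log2 change of -0.66 (edgeR adjusted p = 0.0114). Gstm7 lies closer to Gnai3, since it ends at 107931817 and Gnai3 starts at 108107280.

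Profiles over the 8 libraries were compared by the root mean square difference of log2 CPM after centring each gene on its mean. The closest gene lies below the median difference because it is picked as the smallest, so the medians given here test nothing. The members' own spread about their means ran from 0.0774 for Gnai2 to 0.442 for Gnai1. The protein-coding gene closest to Emx2 was Kalrn (difference 0.0496, against a median of 0.266 over the protein-coding genes tested), followed by Magt1 (0.0552). Closest to Stk32a were Tyr (0.0727, against a median of 0.417), a pigment cell gene at a mean of 1.85 CPM, and Alox5ap (0.139). Closest to Gnai1 were Dctn1 (0.055, against a median of 0.475) and Pik3r2 (0.0586), and closest to Insc were Ttf1 (0.0673, against a median of 0.275) and Sdccag8 (0.069). For Gpsm2 they were Asrgl1 (0.0353) and Zfp688 (0.0384), for Gnai2 Mapre1 (0.0205) and Cyb5r3 (0.0344), and for Gnai3 Tmem222 (0.0419) and Acly (0.049).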
